A study of Homo sapiens with 4 samples.

Results

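The data described here are the departures of the combination of aerobic exercise and radiation from the sum of the effects that each treatment had alone, gene by gene, in tumors grown from A549 cells. The departure of a gene was the log2 ratio of the combination over radiation alone minus the log2 ratio of exercise alone over control. A departure of 0 means that exercise and radiation multiplied together, so that the combination held the level that the 2 separate effects predicted. A positive departure means a level above that prediction, a negative one a level below it, and 1 log2 unit is a 2-fold departure. Departures were taken for 15385 of 38137 genes, those whose count averaged at least 100 reads over the 4 libraries. Another 16145 genes had reads but fell under this minimum, and 6607 had 0 reads. At the edge of the minimum, FOXJ1 and RHD, with a mean of 100 reads, had departures of 1.58 and -0.65, while CELA2B and HAS2, with a mean of 99.75 reads, had 0.01 and -0.70.

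A549 is an established line of human lung adenocarcinoma, here injected into the flank of male BALB/c athymic nude mice, which lack T cells but keep macrophages, natural killer cells, vessels and stroma of the host. The combination group ran on a treadmill and was irradiated on the same days, the radiation group was irradiated only, the exercise group ran only, and the control group received neither. Irradiation was 2 Gy per session and running was at 8.0 m/min for 30 min, with 3 sessions a week over 2 weeks. The mice, 5 per group, are described as 6 weeks old. Treatment began only once a tumor was palpable, and the age at that time is not given. Each group has 1 library of polyA-selected RNA, and whether it came from 1 tumor or several is not given in the sources used here. All groups share the cell line, the host strain and the site of the tumor.

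With 1 library in each of the 4 corners of the design, no departure could be tested. An additive model leaves 1 residual degree of freedom, and that degree of freedom is the departure itself. Differences between tumors, handling or sequencing of any of the 4 libraries therefore cannot be told apart from a departure, and values here are descriptions of these libraries. The combination over radiation alone and exercise alone over control share no library, and neither do the combination over exercise alone and radiation alone over control. Intervals given with single genes are exact 95% intervals for the 4 read counts, and they cover counting error only.

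The gene families at the extremes belong to well known programs. Interferons bind receptors that activate a complex holding STAT2 and IRF9, which turns on antiviral genes through a promoter element, the interferon-stimulated response element (ISRE). Genes of mitosis are transcribed late in the cell cycle, largely through the cell cycle genes homology region (CHR) and CCAAT boxes in short promoters, and ionizing radiation lowers them while p53 raises its own targets.

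Promoter sequences were matched in the RefSeq promoter table (GRCh38.p14, 250 bases before to 50 after the start of each gene) for 11740 of the genes tested. The letters GAAA, followed by any 2 bases (NN) and by GAAA again, are the core of an ISRE, and searched on both strands they were found in 25 of the 40 interferon-stimulated genes with a promoter entry (62.5%), against 334 of all 11740 (2.84%). For the mitotic genes, TTTGAA on either strand was found in 41 of 59 promoters (69.5%), against 10.3% of all, the palindrome TTCGAA in 5 of 59 (8.47%), against 1.76% of all, and CCAAT on either strand in 43 of 59 (72.9%), against 36.4% of all. A match is a string of letters in the window and not a shown binding site. The 4 windows below belong to the interferon-stimulated and mitotic genes with the largest departures that hold these letters, printed 5′ to 3′ on the strand of the gene, with the matched letters in capitals. In the window of IFI6, chr1:27672231-27672393 on the minus strand, the 3 matches to the ISRE core lay between 156 and 93 bases before the start. In that of IFITM1, chr11:313955-314039 on the plus strand, the match began 40 bases before the start. In that of CDC20, chr1:43358758-43358966 on the plus strand, the matches to TTTGAA, of which the first is on the opposite strand and so reads TTCAAA, began 178 and 65 bases before the start. In that of PLK1, chr16:23678815-23678888 on the plus strand, the match began 29 bases before the start.
IFI6: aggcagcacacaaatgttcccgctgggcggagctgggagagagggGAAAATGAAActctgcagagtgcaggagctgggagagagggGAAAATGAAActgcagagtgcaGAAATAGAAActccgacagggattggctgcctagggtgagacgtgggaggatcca
IFITM1: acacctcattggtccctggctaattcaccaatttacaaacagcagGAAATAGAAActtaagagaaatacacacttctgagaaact
CDC20: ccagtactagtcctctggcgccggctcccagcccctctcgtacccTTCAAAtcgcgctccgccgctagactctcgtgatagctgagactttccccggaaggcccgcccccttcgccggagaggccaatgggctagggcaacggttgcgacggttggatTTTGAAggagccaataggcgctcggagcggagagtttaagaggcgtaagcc
PLK1: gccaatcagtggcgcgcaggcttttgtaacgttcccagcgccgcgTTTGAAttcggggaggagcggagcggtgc

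Depth differed little between the libraries, with 33432637 reads assigned to genes in the combination, 35408705 with radiation alone, 34304760 with exercise alone and 34602535 in control. Levels are given as CPM, the reads of a gene scaled to a common library size after TMM normalization (factors between 0.98 and 1.03), and are not corrected for gene length. The epithelial label of the cells was borne out by reads of KRT8 (between 110279 and 125804 per library) and AKR1B10 (between 56748 and 63215), whereas the alveolar type II marker SFTPC had at most 3 reads in any library. Reads were aligned to the human genome, and how mouse reads were treated is not given in the sources used here. Counts of host cell markers therefore do not measure how much mouse tissue a library held. These counts ranged widely between markers. CSF1R had between 8208 and 9933 reads per library and TP63 between 1827 and 3003, whereas others had few. The muscle marker CKM had 67, 81, 11 and 2 reads in the combination, radiation, exercise and control libraries, and the leukocyte marker PTPRC 15, 8, 14 and 7. Among endothelial markers, CDH5 had 16, 16, 15 and 21 reads in the same order, whereas PECAM1 had 181, 334, 484 and 655, lowest in the combination, with a departure of -0.41. The other endothelial markers tested, ENG and EGFL7, were at 0.40 and 0.34.

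Departures were centred on 0, with a median of -0.01 over all genes tested, and the middle 90% of genes lay between -0.53 and 0.44. At least 2-fold departures above 0 were found for 75 genes (0.487% of those tested) and below 0 for 113 genes (0.734%). At 1.5-fold there were 398 genes above (2.59%) and 609 below (3.96%). With FPKM, which are scaled by gene length and depth, and 0.1 added, in place of counts, 45 genes were at least 2-fold above and 30 below. A fixed gene length cancels in a departure, whereas the added 0.1 shrinks the ratios of genes with low FPKM. The reason for the lower counts was not tested. Exercise had few large contrasts of its own. Set against radiation alone, the combination was at least 2-fold higher for 9 genes (0.0585%) and at least 2-fold lower for 14 (0.091%). In unirradiated tumors, 45 were higher (0.292%) and 26 lower (0.169%) with exercise alone than in control. Radiation contrasts were larger among the exercised tumors, where the combination was at least 2-fold above exercise alone for 305 genes (1.98%) and below it for 292 (1.9%). Without exercise, 166 genes were higher (1.08%) and 55 lower (0.357%) with radiation alone than in control.

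A departure can come from any of the 4 libraries, and among large departures the exercise-alone library was the one that most often stood apart. For each gene, the library that stood apart was taken as the one without which the other 3 had the smallest range of log2 CPM. Every gene is given such a library, also one with additive effects, so the measure cannot tell which library a departure came from. Over all genes tested this was the combination library for 4901 genes, radiation for 3208, exercise for 4628 and control for 2648. Among the 75 genes with a 2-fold departure above 0 it was exercise for 39, the combination for 19, radiation for 9 and control for 8. Among the 113 below 0 it was exercise for 61, the combination for 26, control for 22 and radiation for 4. The exercise library also stood apart in its ribosomal RNA, given with the noncoding RNAs further on, and the part of that in the departures was not tested.

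Genes for which the sum of the single effects was sizeable mostly held a combination closer to control than the sum. Of 1440 genes whose single effects summed to at least 1.5-fold, 1191 (82.7%) fell short of the sum, among them 152 with the combination on the opposite side of control, and 249 (17.3%) went beyond it. This count cannot be read as saturation. The departure and the sum contain the exercise, radiation and control libraries with opposite signs, so error in any of those libraries alone places the combination short of the sum. With the direction taken instead from the mean radiation effect over both exercise states, which gives every library equal weight, 210 of 1105 genes fell short (19%) and 895 went beyond (81.0%). With the direction taken from the mean exercise effect, 90 of 117 genes fell short (76.9%) and 27 went beyond (23.1%). The same data thus give opposite shares according to how the direction of an effect is set, and families are described below by their 4 levels.

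**Figure D1:**
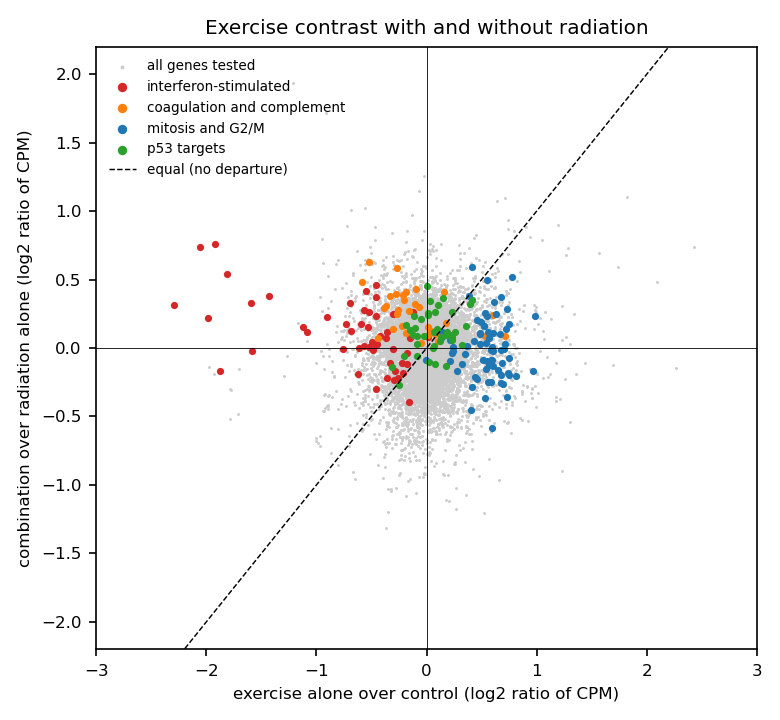
Log2 ratio of the combination over radiation alone (vertical axis) against that of exercise alone over control (horizontal axis), 1 point per gene tested, with 4 gene lists coloured and 4 genes outside the axes. The dashed line marks equal ratios, and the distance of a point above or below it is its departure. Interferon-stimulated genes lie left of and above the line, mitotic genes right of and below it, and p53 targets along it.

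Interferon-stimulated genes were the farthest above additivity among the 38 lists. The lists were chosen with earlier results of these data known, so such ranks and shares only describe these libraries. Of 60 listed genes, 51 were tested, and their median departure was 0.59, with the middle 50% between 0.26 and 1.0, against a median of -0.01 over all genes. Of the 51 genes, 50 had a departure above 0, against 48.9% of all genes, and 13 were at least 2-fold above, against 0.487% of all. The exception was TRIM25, an E3 ligase of RIG-I signaling, at -0.24. The median ratio of the combination over radiation alone was 0.08, and that of exercise alone over control was -0.49. Exercise thus went with lower interferon-stimulated genes in unirradiated tumors and with no such shift in irradiated ones. The same values can be read from the side of radiation: its median was 0.77 in exercised tumors, with 22 genes at least 2-fold higher, against 1.98% of all genes, and 0.24 in unexercised tumors, with 2 genes at least 2-fold higher, against 1.08% of all. The exercise library stood apart for 45 of the 51 genes, against 30.1% of all genes.

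IFI6, an interferon-induced mitochondrial and endoplasmic reticulum protein, had 132 CPM in the combination, 79.0 with radiation alone, 11.5 with exercise alone and 47.8 in control. Its departure was 2.80 (2.62 to 2.97), made of a log2 ratio of 0.74 for the combination over radiation alone and -2.06 for exercise alone over control. The exercise library was the lowest for IFI6 by a wide margin and the combination the highest. IFITM1, a membrane protein that blocks viral entry, had 17.3, 10.2, 2.29 and 8.68 CPM in the combination, radiation, exercise and control libraries, and a departure of 2.68 (2.27 to 3.11). These are the genes whose ISRE letters are printed above.

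The other genes of this list among the highest departures had the same order of levels at the low end. XAF1, which antagonizes the apoptosis inhibitor XIAP, had 9.47 CPM in the combination, 7.59 with radiation alone, 0.868 with exercise alone and 4.31 in control, and a departure of 2.61 (2.0 to 3.29). IFIT1, which binds foreign RNA caps, had 35.3, 30.3, 4.86 and 19.3 CPM in the same order and a departure of 2.2 (1.93 to 2.49). In both, the exercise library was the lowest and the combination was within 1.3-fold of radiation alone. IFI27 had a departure of 2.35, the dynamin-like antiviral GTPase MX1 1.93, the ubiquitin-like modifier ISG15 1.81 and IFI44 1.71. At the other end, the transcription factor STAT2 had a departure of 0.03 (-0.06 to 0.13) and USP18, the protease that removes ISG15, had 0.04 (-0.27 to 0.35). Levels within the list were thus far from uniform.

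Genes of MHC class I presentation, which load and display peptides on the cell surface, had smaller departures in one direction. All 20 listed genes were tested and all 20 had a departure above 0, against 48.9% of all genes, with a median of 0.35, and 2 were at least 1.5-fold above, against 2.59% of all genes. HLA-B had 175 CPM in the combination, 129 with radiation alone, 43.4 with exercise alone and 57.7 in control. Both irradiated libraries were above both unirradiated ones, and exercise stood with a higher level in the irradiated pair and a lower level in the unirradiated pair, which gave a departure of 0.85 (0.74 to 0.96). HLA-C had 431, 339, 140 and 182 CPM in the same order and a departure of 0.73 (0.66 to 0.79). B2M, the invariant light chain, had 644, 524, 268 and 293 CPM and a departure of 0.42. At the low end of the list, the chaperone CALR had 0.04 (-0.01 to 0.09). Reads can be shared between the near-identical HLA genes, so their values are not independent. Macrophage and neutrophil markers, 18 genes of which 6 were tested, summed over all 18 to 667 CPM in the combination, 576 with radiation alone, 455 with exercise alone and 473 in control. Of their defining markers, CSF1R had 8208, 8311, 9221 and 9933 reads, which does not follow that order, whereas CD163 had 7, 3, 0 and 0 and PTPRC 15, 8, 14 and 7 reads. The part of these cells in the departures was not tested.

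**Figure D2:**
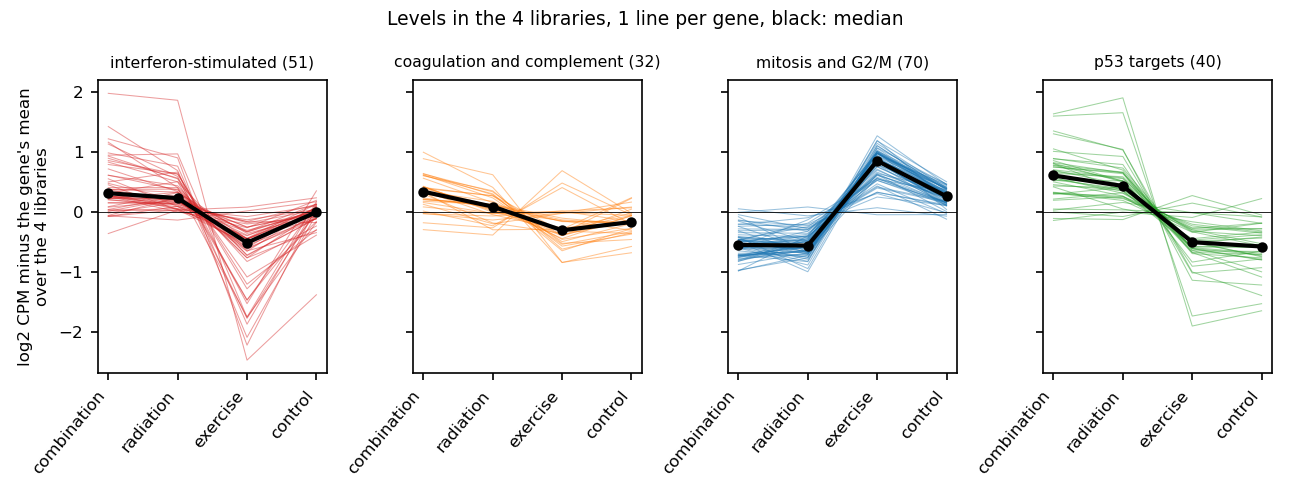
Level of each gene in the 4 libraries, as log2 CPM minus the mean of the gene over the libraries, for 4 gene lists, with the median in black and 1 thin line per gene. The exercise library is the lowest for interferon-stimulated genes (51 tested) and the highest for mitotic genes (70 tested), while p53 targets (40 tested) separate irradiated from unirradiated libraries.

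Genes of mitosis and G2/M were the farthest below additivity among the 38 lists, a rank with the same limit as that of the interferon-stimulated genes. Of 72 listed genes, 70 were tested, and the median departure was -0.57, with the middle 50% between -0.73 and -0.33. A departure below 0 was found for 69 of the 70, against 51.1% of all genes, 33 were at least 1.5-fold below, against 3.96%, and 4 at least 2-fold below, against 0.734%. The exception was the spindle checkpoint gene MAD2L1, at 0.18 (-0.23 to 0.60). The median ratio of the combination over radiation alone was -0.02 and that of exercise alone over control 0.56, with 33 of 70 genes above 0 in the irradiated pair, against 51.8% of all genes, and 69 of 70 in the unirradiated pair, against 50.9%. From the side of radiation, the median was -1.40 in exercised tumors, with 55 genes at least 2-fold lower, against 1.9% of all genes, and -0.81 in unexercised tumors, with 18 genes at least 2-fold lower, against 0.357% of all. The summed level of all 72 listed genes was 1030 CPM in the combination and 1031 with radiation alone, against 2203 with exercise alone and 1576 in control. Irradiated tumors therefore held nearly the same summed level whether or not the mice ran. The exercise library stood apart for 67 of the 70 genes, against 30.1% of all genes.

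KIF20A, a kinesin of the cleavage furrow, had 6.17 CPM in the combination, 6.93 with radiation alone, 19 with exercise alone and 9.72 in control. Its departure was -1.14 (-1.47 to -0.80), with a ratio of -0.17 for the combination over radiation alone and 0.97 for exercise alone over control. NUF2, a kinetochore subunit, had 1.80, 2.70, 7.06 and 4.68 CPM in the same order and a departure of -1.17 (-1.76 to -0.61). In both genes the exercise library was the highest and the combination the lowest. The kinesin KIF14 had a departure of -1.08 (-1.45 to -0.72). CDC20, the activator of the anaphase-promoting complex, had 1.37, 1.58, 6.51 and 3.70 CPM and a departure of -1.02, and the mitotic kinase PLK1 had 7.57, 9.09, 19.6 and 12.2 CPM and a departure of -0.95. These last are the genes whose CHR letters are printed above. MKI67, the Ki-67 antigen of cycling cells, had 42.7 CPM in the combination, 49.0 with radiation alone, 174 with exercise alone and 104 in control, and a departure of -0.94. At the other end of the list, the condensin subunit NCAPG was at -0.01 and the checkpoint protein BUB3 at -0.02. Among 102 families of genes sharing the letters of their symbol, the kinesins (KIF, 34 tested) had the lowest median departure, at -0.27.

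Departures of DNA replication and G1/S genes had the same sign at a smaller size. Of 62 genes tested out of 64, 53 were below 0, against 51.1% of all genes, and 9 above, with a median of -0.21, and 9 were at least 1.5-fold below, against 3.96%. E2F7, a repressor of the E2F family, had 4.43 CPM in the combination, 5.84 with radiation alone, 9.03 with exercise alone and 5.26 in control, and a departure of -1.17 (-1.59 to -0.76). E2F1, an activator of the same family, had 7.36, 6.76, 17.9 and 8.57 CPM and a departure of -0.94 (-1.28 to -0.61). ORC1, of the origin recognition complex, had -0.92. The exercise library was the highest in these genes. POLA1, the catalytic subunit of polymerase alpha, and CDC25A, a phosphatase that drives entry into S phase, lay on the other side at 0.12 and 0.15. The letters TTTCCCGC of an E2F site, on either strand, were in 12 of the 51 promoters of the list (23.5%), against 2.50% of all. Homologous recombination and related repair genes, of which 34 of 35 were tested, had a median of -0.27, with 29 below 0 and 7 at least 1.5-fold below, against the same shares of all genes. This median was -0.13 with a minimum of 500 reads and -0.16 with FPKM. XRCC2, a gene of homologous recombination, had 5.62 CPM in the combination, 5.89 with radiation alone, 14 with exercise alone and 8.46 in control, and a departure of -0.79 (-1.16 to -0.43).

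Targets of p53 were close to additive. All 40 listed genes were tested, and the median departure was 0.04, with every member between -0.31 and 0.45. None was at least 1.5-fold above or below 0, which is near the low shares of all genes, 2.59% and 3.96%. Radiation went with higher levels in both exercise states, above 0 for 37 of 40 genes in exercised tumors, against 48.6% of all genes, and for 38 of 40 in unexercised tumors, against 50.2%. These ratios had a median of 1.11 in exercised tumors, where 23 genes were at least 2-fold higher, against 1.98% of all, and 0.99 in unexercised tumors, where 20 were, against 1.08%. The median sum of the single effects was 1.11 and the median of the combination over control was 1.21. CDKN1A, the cyclin-dependent kinase inhibitor p21, had 408 CPM in the combination, 327 with radiation alone, 79.6 with exercise alone and 60.6 in control, and a departure of -0.07. MDM2, the ligase that degrades p53, had 290, 272, 83.7 and 91.0 CPM and a departure of 0.22. The irradiated libraries were severalfold above the unirradiated ones for both genes, and the exercise ratios of CDKN1A were 0.32 with radiation and 0.39 without it. The highest and lowest members were the kinase PLK2, at 0.45 (0.30 to 0.60), and the death receptor TNFRSF10A, at -0.31 (-0.51 to -0.11). DDB2, a damage recognition factor of nucleotide excision repair, had 120, 107, 41.3 and 32.2 CPM and a departure of -0.20 (-0.33 to -0.07), while on the CPM scale it was above the sum of the separate gains, by 3.39 CPM. Replication-dependent histone genes, which make mostly transcripts without a polyA tail and of which 13 of 59 were tested, had a median of 0.20, with 9 of the 13 above 0, against 48.9% of all genes.

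**Figure D3:**
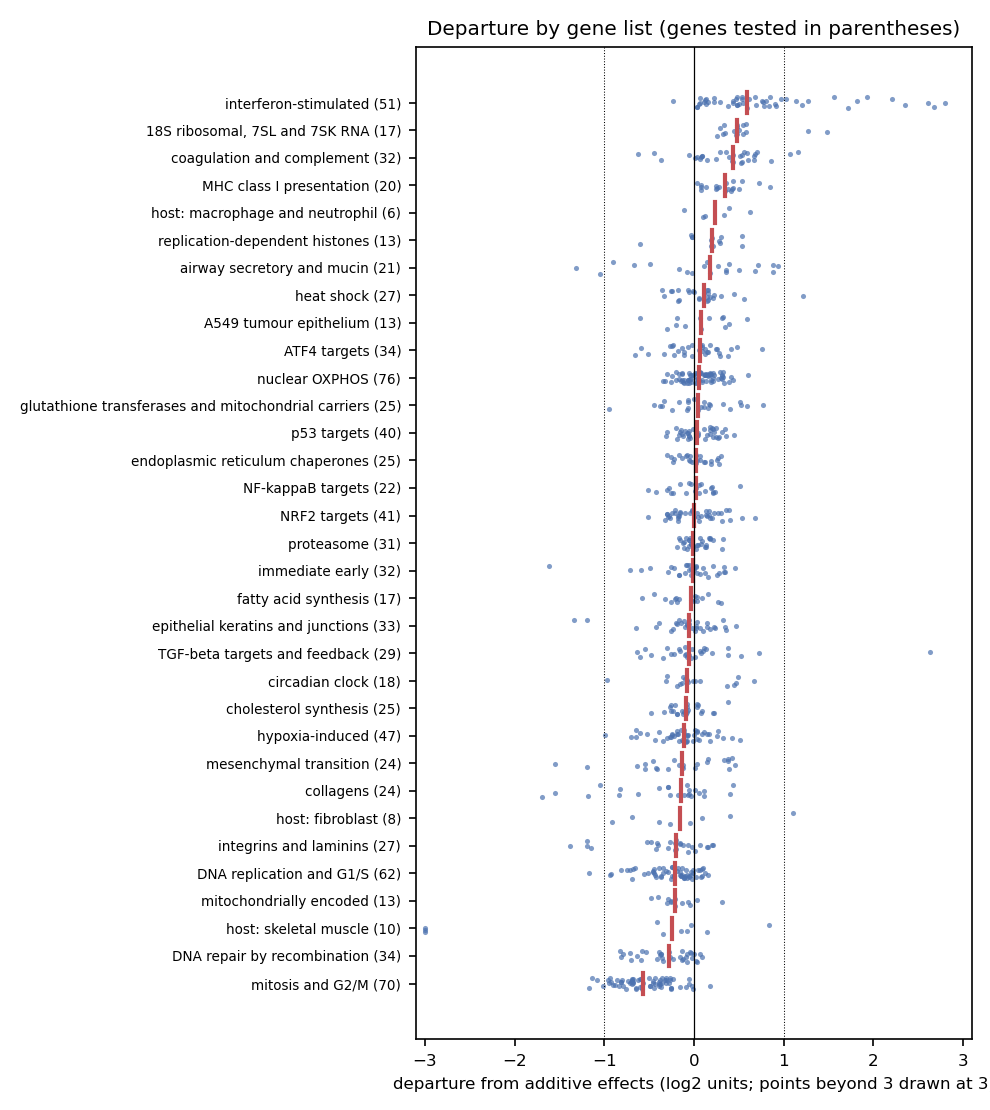
Departure of every gene tested (points, log2 units) in the gene lists with at least 5 genes tested, with the median of each list as a bar and the number of genes tested in parentheses. Interferon-stimulated genes have the highest median (0.59) and mitotic genes the lowest (-0.57), and dotted lines mark 2-fold departures.

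Immediate early genes, transcription factors and regulators that are transcribed within minutes of a stimulus, stood higher with exercise in both radiation states. The median ratio was 0.37 for the combination over radiation alone and 0.31 for exercise alone over control, with 31 and 30 of 32 genes above 0, against 51.8% and 50.9% of all genes, and the median departure was -0.01. The few large departures were negative. EGR1, a zinc finger factor, had 29.1 CPM in the combination, 20.8 with radiation alone, 27.4 with exercise alone and 6.39 in control. Its single effects summed to 3.80 on the log2 scale, the combination was at 2.18 over control, and the departure was -1.61 (-1.87 to -1.36). The control library was far below the other 3, and those 3 lay close together. FOSB had 31.1, 14.4, 19.5 and 5.52 CPM and a departure of -0.71 (-1.0 to -0.43), and FOS had 231, 144, 144 and 59.8 CPM and a departure of -0.59 (-0.68 to -0.50). For these partners of AP-1 the combination was the highest library and the control the lowest. On the CPM scale their combination exceeded the sum of the separate gains, by 2.66 CPM for FOSB and 2.28 CPM for FOS, so their sign depends on the scale on which effects are added. Above 0 were the matricellular protein CCN1, at 0.46 (0.26 to 0.65), and the AP-1 factor JUNB, at 0.35 (0.27 to 0.43).

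Hypoxia-induced genes fell slightly short of the sum as a list, as did most genes with a sizeable sum. Of the 21 whose single effects summed to at least 1.5-fold, 16 fell short and 5 went beyond. Over all such genes 82.7% fell short, so falling short is not particular to this list. All 47 were tested, the single effects summed to a median of 0.50, the combination was at 0.39 over control and the median departure was -0.11, with 31 genes below 0, against 51.1% of all genes, and 16 above. PFKFB4, a regulator of glycolysis, had 25.2 CPM in the combination, 33.7 with radiation alone, 31.7 with exercise alone and 21.4 in control, and a departure of -0.99 (-1.18 to -0.80). Each treatment alone had a higher level than the combination. CA9, carbonic anhydrase IX, and ADM, the vasodilator adrenomedullin, were the highest of the list. CA9 had 92.6, 69.8, 36.1 and 38.8 CPM in the combination, radiation, exercise and control libraries and a departure of 0.51 (0.38 to 0.65). ADM had 102, 69.4, 50.8 and 46.7 CPM and a departure of 0.43 (0.31 to 0.55). Both were highest in the combination, with a ratio over radiation alone of 0.41 for CA9 and 0.55 for ADM, against -0.10 and 0.12 for exercise alone over control. HIF1A, which encodes the oxygen-regulated subunit of HIF-1, had 197, 218, 181 and 154 CPM and a departure of -0.38. Transcripts of HIF1A do not measure the protein, which is controlled by its degradation.

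A list of 30 genes, made of glutathione transferases, mitochondrial carrier and pore genes and HIF1A, CA9 and MKI67, had 25 tested and a median departure of 0.04. GSTO1, an omega class transferase, had 25.9, 24.0, 21.4 and 20.4 CPM in the 4 libraries and a departure of 0.04. PPIF, the cyclophilin of the mitochondrial permeability transition pore, had 45.4, 43.6, 48.0 and 44.1 CPM and a departure of -0.06. Both were thus additive within 0.1 log2 units. GSTM5 had 1 read in the combination and 0 in the other libraries, and SLC25A31 had 8, 2, 2 and 5 reads, so neither reached the minimum and no departure was taken. The NRF2 targets, 41 of 41 tested, had a median of -0.00, with HMOX1, which degrades heme, highest at 0.68 (0.49 to 0.87) and the ferritin light chain FTL at 0.54 (0.52 to 0.56).

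Coagulation and complement genes exceeded the sum. Of 39 genes, 32 were tested, with a median departure of 0.43, 28 above 0, against 48.9% of all genes, and 9 at least 1.5-fold above, against 2.59%. The median ratio of the combination over radiation alone was 0.26, with 32 of 32 genes above 0, against 51.8% of all. That of exercise alone over control was -0.17, with 11 of 32 above 0, against 50.9%. All 39 listed genes summed to 10599 CPM in the combination and 8601 with radiation alone, against 5522 with exercise alone and 6198 in control. SERPINA1, alpha-1 antitrypsin, had 1015, 676, 283 and 341 CPM in that order and a departure of 0.86. The fibrinogen chains, which A549 cells make, had like patterns: FGA had 1900, 1486, 820 and 942 CPM, FGB 1300, 980, 640 and 728 CPM, and FGG 955, 731, 427 and 494 CPM. Their departures were 0.55, 0.59 and 0.60. Irradiated libraries were above unirradiated ones, and within each pair exercise stood on opposite sides. C4A and C4B, near-identical complement genes that can share reads, had departures of 1.16 and 1.07. In contrast, tissue factor F3 and the urokinase PLAU were at -0.62 and -0.45, and the exercise library was the highest for both, at 24.5 and 78.2 CPM. The sum of the macrophage and neutrophil markers given with the MHC genes had the same order of libraries as this list. Of their defining markers, CSF1R did not follow that order, and CD163 and PTPRC had few reads. The part of these cells in the list was not tested.

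Secretory genes of the airway had departures in both directions. Of 29 listed, 21 were tested, with a median of 0.17, 5 at least 1.5-fold above, against 2.59% of all genes, and 4 at least 1.5-fold below, against 3.96%. TFF2, PIGR, LCN2, SFTPD and TFF3 were the 5 above, and the mucins MUC2, MUC16, MUC1 and MUC5B were the 4 below. Another mucin, MUC13, was at 0.15. LCN2, an iron-sequestering lipocalin, had 174 CPM in the combination, 135 with radiation alone, 42.2 with exercise alone and 60.1 in control, and a departure of 0.88. PIGR, the receptor that carries antibodies across epithelia, had 19.9, 16.4, 3.88 and 5.91 CPM and a departure of 0.89. For both, radiation had higher levels and exercise differed in sign between the pairs. MUC2, a gel-forming mucin, had 54.1, 100, 36.8 and 27.4 CPM and a departure of -1.31. MUC16, the cell surface mucin of the CA-125 antigen, had 142, 244, 211 and 176 CPM and a departure of -1.05. For both mucins the radiation library was the highest, and the combination was below it by 0.89 log2 units for MUC2 and 0.78 for MUC16.

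Some of the mucins, such as MUC16, have very long transcripts, and transcript length moved with the departure over all genes. Genes tested with a length in the GENCODE annotation (13616, or 88.5%) were divided into 10 groups by the length of their longest transcript. In the shortest group, 54 to 1512 bases, the median departure was 0.05 and 58.8% of genes were above 0. In the longest, 7608 to 109224 bases, the median was -0.12 and 29.4% were above 0. The trend lay in the contrasts that hold the combination library. Median ratios in the shortest and longest groups were 0.07 and -0.12 for the combination over radiation alone. They were 0.04 and -0.10 for the combination over exercise alone. Without the combination they were near 0, at -0.01 and 0.00 for exercise alone over control and -0.003 and 0.02 for radiation alone over control. The cause was not tested. Relative to genes of like length, the median of interferon-stimulated genes was 0.64, that of mitotic genes -0.55 and that of coagulation and complement 0.45. Smaller medians depended more on length, as those of collagens, at -0.14 as computed and -0.05 relative to genes of like length, and integrins and laminins, at -0.20 and -0.14. Cytosolic ribosomal protein genes, which are short, had a median of 0.12, with 74 of 96 above 0, against 48.9% of all genes, and 0.11 relative to genes of like length.

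**Figure D4:**
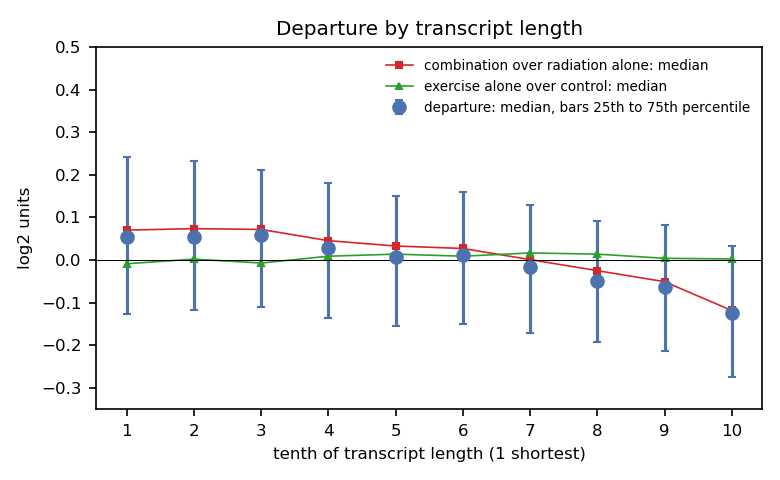
Median departure (circles, bars from the 25th to the 75th percentile) in 10 groups of genes ordered by transcript length, with the median log2 ratios of the combination over radiation alone (squares) and of exercise alone over control (triangles). The median departure is 0.05 in the shortest group and -0.12 in the longest, and the ratio within the irradiated pair has the same course.

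Matrix genes held some of the largest shortfalls. Of 24 collagens tested out of 39, 18 were below 0, against 51.1% of all genes, with 4 at least 2-fold below, against 0.734%, and 7 at least 1.5-fold below, against 3.96%. Their median was -0.14 and their mean -0.35. COL10A1, a short-chain collagen of growth plate cartilage and of tumor stroma, had 25.8 CPM in the combination, 15.5 with radiation alone, 64.4 with exercise alone and 11.9 in control, and a departure of -1.70 (-1.92 to -1.48). Exercise went with a higher level in both pairs, by 0.74 in the irradiated and 2.43 in the unirradiated pair. COL22A1 had 3.05, 3.48, 12.9 and 5.04 CPM and a departure of -1.54, and the basement membrane chain COL4A2 had 25.2, 24.2, 75.7 and 32.3 CPM and a departure of -1.18. The exercise library was the highest in all of these. COL5A1 was at -1.05, while COL3A1 and COL8A1 were at 0.40 and 0.43. Integrins and laminins, of which 27 of 35 were tested, had 21 genes below 0 and 4 at least 2-fold below, against the same shares of all genes, a median departure of -0.20 and a mean of -0.31, with a median ratio of -0.11 for the combination over radiation alone and 0.18 for exercise alone over control. ITGA11, a collagen receptor subunit, had 36, 55.4, 90.9 and 53.5 CPM and a departure of -1.39. ITGB6, a subunit of an epithelial integrin that activates TGF-beta, had 9.77, 11.2, 23.5 and 11.7 CPM and a departure of -1.20 (-1.48 to -0.92). The basement membrane linker NID1 and the laminin chain LAMA3 were at -1.19 and -1.14. MMP1, a collagenase, had 4.03, 4.34, 10.7 and 3.92 CPM and a departure of -1.55 (-2.01 to -1.10). Fibroblast markers, 15 genes of which 8 were tested, summed over all 15 to 259 CPM in the combination and 298 with radiation alone, against 429 with exercise alone and 419 in control. The defining markers differed from each other. DCN had 18, 27, 40 and 49 reads. LUM had 532, 586, 985 and 655 reads and a departure of -0.69, whereas PDGFRA had 104, 72, 110 and 160 reads and a departure of 1.10. The part of fibroblasts in the collagen values was not tested, and fewer stromal cells and less RNA per cell cannot be told apart in these bulk libraries.

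KRT17 and KRT6A, keratins of stressed epithelia, had the pattern of the matrix genes, which only some of the other keratins shared. Of 33 epithelial keratin and junction genes tested, the median departure was -0.06, with 15 above 0, against 48.9% of all genes, and 2 at least 2-fold below, against 0.734%. KRT17 had 163 CPM in the combination, 185 with radiation alone, 884 with exercise alone and 441 in control, and a departure of -1.19. KRT6A had 18.2, 22.9, 88.5 and 43.9 CPM and a departure of -1.34. The exercise library was the highest for both, about 2-fold above control, and the irradiated libraries lay close together below control. It was also the highest for KRT16, which had 27.2, 31.3, 42.2 and 31.0 CPM and a departure of -0.65. KRT15, a keratin of basal epithelia, went the other way, with 188 CPM in the combination, 239 with radiation alone, 101 with exercise alone and 131 in control, and its departure was 0.02. KRT8, of simple epithelia, was at 0.34. Markers of keratinocytes, 10 genes of which 9 are in the files and 4 were tested, summed over the 9 to 282, 331, 231 and 248 CPM. KRT15 was the largest part in each library, and this sum did not follow KRT17 and KRT6A. The defining markers were all highest in the exercise library and lower in the irradiated pair. KRT14 had 88, 115, 397 and 287 reads, KRT5 18, 11, 48 and 40, and TP63 1827, 1893, 3003 and 2737. Departures were -0.81 for KRT14 and -0.15 for TP63. The part of keratinocytes in these values was not tested.

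The highest departures outside the interferon list came in neighbouring genes. LINC00486, a long noncoding RNA, lies on chromosome 2 at 32825441 to 32842597, and LTBP1, which encodes a binding protein of latent TGF-beta, at 32946953 to 33399509 of GRCh38. LINC00486 had 809 CPM in the combination, 211 with radiation alone, 111 with exercise alone and 259 in control, and the highest departure of all genes tested, 3.16 (3.09 to 3.22). LTBP1 had 865, 263, 161 and 304 CPM and a departure of 2.63 (2.57 to 2.69). Both were highest in the combination, and the combination was the library that stood apart. LINC00486 had 26481, 7326, 3850 and 9235 reads and LTBP1 28315, 9161, 5558 and 10847, so these too ran close together in every library. Whether the same reads were counted in both genes was not tested, so their departures may not be independent. No other gene of the TGF-beta list came near LTBP1, since the 29 tested had a median of -0.06 and ID2, an inhibitor of helix-loop-helix factors, was next at 0.73. SCUBE2, a secreted protein with EGF-like repeats, and NRIP3-DT, a divergent transcript, overlap on chromosome 11 at 9019476 to 9091599 and 9004088 to 9067791. SCUBE2 had 32.8, 16.3, 9.72 and 15.7 CPM and a departure of 1.69 (1.45 to 1.95), and NRIP3-DT had 31.3, 16.9, 8.86 and 14.6 CPM and a departure of 1.61 (1.36 to 1.87). SCUBE2 had 1073, 566, 336 and 559 reads and NRIP3-DT 1025, 586, 306 and 522, so their reads ran close together in every library. The strand setting of the counting is not given in the sources used here, so whether such overlapping genes share reads cannot be told.

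**Figure D5:**
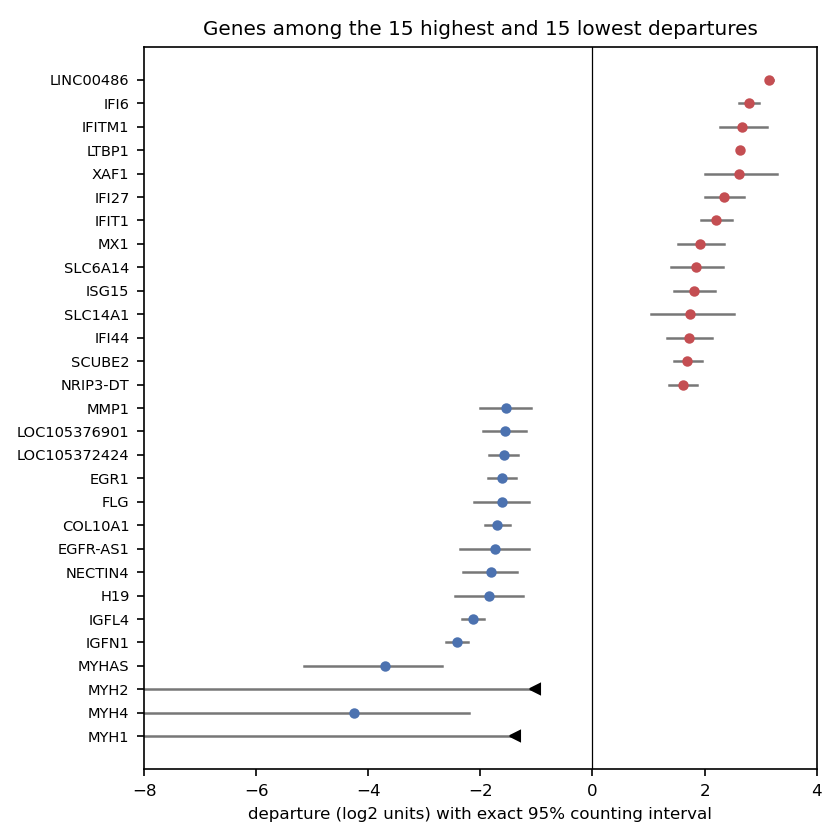
Departure (log2 units) of genes among the 15 highest and 15 lowest values, with exact 95% intervals for counting error as lines that are cut at -8. Triangles mark the upper end of the interval for MYH1 and MYH2, which had 0 reads in control and whose fitted value is not a bound, and LINC00486 is the highest at 3.16.

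The lowest departures of all belonged to a cluster of muscle genes on chromosome 17, and they rest on very few reads in the exercise and control libraries. The fast myosin heavy chains MYH1, MYH2 and MYH4 lie between 10443263 and 10549658, inside the span of the antisense gene MYHAS (10383132 to 10625540). MYH1 had 258 reads in the combination, 278 with radiation alone, 11 with exercise alone and 0 in control, and MYH2 had 284, 183, 14 and 0. MYH4 had 417, 485, 25 and 1 reads and MYHAS 1313, 1366, 96 and 7. Irradiated tumors thus held most of the reads, and control nearly none. With so few reads in the other libraries, these genes reached the minimum count only through the irradiated libraries. Any tested gene with so few reads in exercise and control must have this pattern, so the pattern is partly set by the minimum. With the 0 reads of control set to the 3 reads that a count of 0 allows, the departure was -1.94 for MYH1 and -1.55 for MYH2. These values leave out the counting error of the other libraries and are not bounds. Counting intervals reached up to -1.38 and -1.03 for these genes. For MYH4 the departure was -4.25 (-10.18 to -2.2) and for MYHAS -3.70 (-5.15 to -2.69). On the CPM scale MYH2 was above the sum of the separate gains, by 3.0 CPM, so its sign depends on the scale. Reads of MYH genes and MYHAS cannot be told apart without the strand setting. The other muscle markers did not all follow. Of 34 listed, 10 were tested, and ACTA1, skeletal actin, had 354, 228, 85 and 95 reads and a departure of 0.83, whereas TTN, titin, was at -0.35. The median departure of the muscle list was -0.24, and 0.11 with no minimum count, so its sign depends on the minimum. All 34 listed genes summed to 758 CPM in the combination, 728 with radiation alone, 820 with exercise alone and 666 in control. The cells are of an epithelial line, and whether these reads came from host muscle was not tested.

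The remaining genes at the low end were mixed in kind. IGFN1, an immunoglobulin-like protein of skeletal muscle, had 22.7 CPM in the combination, 25 with radiation alone, 70.2 with exercise alone and 14.6 in control, and a departure of -2.41 (-2.61 to -2.21). IGFL4, a gene of the IGF-like family, had 15.9, 29.6, 59.1 and 25.2 CPM and a departure of -2.13 (-2.32 to -1.94). The exercise library was the highest for both. The imprinted noncoding RNA H19 had 2.08, 3.02, 5.56 and 2.24 CPM and a departure of -1.84 (-2.46 to -1.24). NECTIN4, a cell adhesion molecule, had 6.41, 6.99, 6.92 and 2.13 CPM and a departure of -1.82 (-2.30 to -1.35), with only the control library set apart. FLG, filaggrin of the cornified layer, was at -1.62 with the radiation library highest at 6.81 CPM, and EGFR-AS1, antisense to EGFR, was at -1.73 with the combination lowest at 1.71 CPM. The uncharacterized LOC105372424 and LOC105376901, at -1.58 and -1.57, shared the pattern of NECTIN4.

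High departures outside these lists included transporters. SLC6A14, an amino acid transporter, had 10.8 CPM in the combination, 11.9 with radiation alone, 1.82 with exercise alone and 7.23 in control, and a departure of 1.84 (1.39 to 2.32). SLC14A1, a urea transporter, had 4.98, 5.66, 0.724 and 2.80 CPM and a departure of 1.75 (1.04 to 2.53). In both the exercise library was the lowest, as for the interferon-stimulated genes.

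Noncoding RNAs of the ribosome and the signal recognition particle were low in the exercise library. Of 20 listed 18S, 28S, 45S, 7SL and 7SK genes, 17 were tested, all 17 were above 0, against 48.9% of all genes, and the median departure was 0.48. Summed levels were 10331 CPM in the combination, 14073 with radiation alone, 6736 with exercise alone and 12839 in control. The median ratio was -0.45 for the combination over radiation alone and -0.93 for exercise alone over control, so exercise stood lower in both pairs. The combination fell short of the summed decrease in 17 of 17 genes, against 82.7% of all genes with a sum of at least 1.5-fold. RN7SL1 had 33.2, 40.9, 21.2 and 73.1 CPM and a departure of 1.48, and RN7SL2 had 24.9, 35.6, 18.9 and 65.1 CPM and a departure of 1.27. These RNAs lack a long polyA tail, their copies share reads, and their level in a polyA-selected library moves with the selection as well as with the cell.

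Mitochondrial transcripts were mostly below 0 and their nuclear partners near 0. Of the 13 mitochondrially encoded mRNAs, 11 were below 0, against 51.1% of all genes, and the median departure was -0.21. They summed to 64973 CPM in the combination, 63438 with radiation alone, 65720 with exercise alone and 52534 in control, so each treatment alone reached the level of the combination. COX1, a cytochrome oxidase subunit, was at -0.40. Nuclear genes of oxidative phosphorylation, 76 of 76 tested, had a median of 0.05, with 48 above 0, against 48.9% of all genes, and a median of 0.02 relative to genes of like length. Their combination over radiation alone was above 0 for 67 genes, against 51.8% of all.

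The other lists lay near 0. The medians were 0.11 for heat shock (27 tested), 0.07 for ATF4 targets (34), 0.02 for endoplasmic reticulum chaperones (25), 0.02 for NF-kappaB targets (22), -0.01 for the proteasome (31), -0.03 for fatty acid synthesis (17), -0.07 for the circadian clock (18), -0.09 for cholesterol synthesis (25) and -0.13 for mesenchymal transition (24). Single members stood out in some of them. HSPA6, a strictly inducible HSP70, had 58 reads in the combination, 51 with radiation alone, 111 with exercise alone and 222 in control, and a departure of 1.22 (0.55 to 1.89), with control the highest. FASN, fatty acid synthase, had 84.3, 91.5, 152 and 110 CPM and a departure of -0.58 (-0.68 to -0.49), and the exercise library was again the highest. SPARC, a collagen-binding matrix protein, was at -0.64 (-0.70 to -0.58), and the clock repressor PER1 at -0.97.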

How the data were processed

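RNA of A549 xenografts was measured in 4 groups with 1 library per group, mapped by the treatment labels. The authors made stranded polyA libraries, trimmed reads, aligned them to GRCh38 with Bowtie2 2.3.4.1 and counted them with featureCounts 1.6.0 (cutadapt is named in the submitters' processing notes). The deposited counts are whole reads for each gene without normalization, and the deposited FPKM values, made by the authors from the same reads, were used only as an alternative. Strand setting, treatment of mouse reads and pooling: not given in the sources used here. Genes tested held 99.3% of reads.

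Counts were scaled by TMM (edgeR 4.0.16, R 4.3.3, genes with a mean of at least 20 reads), and log2 CPM took a prior of 0.5 counts. Further steps used Python 3.11.15, numpy 2.4.6, pandas 2.3.3 and matplotlib 3.10.9. Intervals are exact conditional intervals of the odds ratio of 4 counts at 95%. The steps were tested on simulated data. Transcript lengths are from GENCODE, coordinates and promoters from RefSeq GRCh38.p14.

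Members and the 38 gene lists were chosen with earlier results of these data known. Named were the 15 highest and 15 lowest departures, the 3 highest and 3 lowest of each list, and genes the study names, of which part is given. Some items are not reported here. B2M, CDKN1A, MDM2, FGA, FGG and members beyond these 3 were chosen after their values were seen. Alternatives were DESeq2 1.42.0 size factors, total counts, totals without mitochondrial and ribosomal RNA, priors of 2 and 0.1 counts, FPKM with 0.1 added, minimums of 20, 500 and none, folds of 1.5 and 4, list means, CPM-scale sums and other directions of the sum. Added after seeing the data were TMM over all genes, length matching and counts without muscle genes.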

Additional observations from a re-analysis of the deposited data

Results flagged for a closer look

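In several lists and genes, the exercise contrast had opposite directions in irradiated and unirradiated tumors, at a median of at least 0.1 log2 units on both sides for a list, or at least 1.5-fold on both sides for a gene among the 15 highest or lowest. With 1 library per group the difference was not tested. For lists, the median departure was 0.35 for MHC class I presentation, 0.43 for coagulation and complement and 0.17 for airway secretory and mucin genes, where exercise was higher with radiation and lower without. It was -0.20 for integrins and laminins, where exercise was lower with radiation and higher without.

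For single genes, exercise was at least 1.5-fold higher with radiation and at least 1.5-fold lower without it for LINC00486 (departure 3.16), IFI6 (2.80), IFITM1 (2.68), LTBP1 (2.63), SCUBE2 (1.69) and NRIP3-DT (1.61). The opposite held for IGFL4 (-2.13) and FLG (-1.62), at least 1.5-fold lower with radiation and higher without it.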

How the results depend on the processing

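No paired analysis was possible because each group has 1 library, and for the same reason no library could be left out. Medians of lists were compared at a tolerance of 0.1 log2 units, and 376 values were within it. Genes at 2-fold above and below 0, 75 and 113 as reported, were 45 and 30 with FPKM, 298 and 470 with a minimum of 20 reads, 22 and 31 with 500, 3927 and 4357 with no minimum, 398 and 609 at 1.5-fold and 7 and 6 at 4-fold. DESeq2 or total-count scaling moved the median of all genes to 0.01 and 0.02.

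Medians that moved were, with a minimum of 500 reads, 0.48 for interferon-stimulated genes, -0.39 for mitosis, -0.13 for DNA repair and -0.33 for fibroblast markers, and with FPKM -0.39 for mitosis, -0.16 for repair and -0.059 for skeletal muscle. List means in place of medians were 0.81 for interferon-stimulated genes, -0.35 for collagens, -0.31 for integrins and laminins and -1.30 for muscle. With a minimum of 20 reads, muscle was at -0.054, fibroblast at -0.33 and macrophage markers at 0.13, and with no minimum muscle turned to 0.11, from -0.24 as reported, with fibroblast at -0.26 and macrophage at 0.032. The share of genes short of the sum was 19% with the direction of the mean radiation effect. MYH2 turned sign with FPKM (0.31). On the CPM scale, 11 genes under the naming rule turned sign, namely MYH2 (3.0 CPM), FOSB (2.66 CPM) and FOS (2.28 CPM), with departures of at least 1.5-fold, and 8 with smaller ones: DDB2 (3.39 CPM), MAD2L1 (-0.31 CPM), USP18 (-0.015 CPM), PECAM1 (0.26 CPM), KRT15 (-22.0 CPM), RNA18SN2 (-5.19 CPM), H2AC18 (1.22 CPM) and H2BC18 (0.92 CPM). The cause was not tested. Depth limits genes with few reads in a library, such as NUF2, with 59 in the combination, whose interval spans over 1 log2 unit.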

Other observations

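Families of genes sharing the letters of their symbol were scanned for groups outside the lists, over the 102 families with at least 15 genes tested. After the kinesins, the lowest median was that of the TBC domain genes (TBC, 41 tested), which include activators of Rab GTPases. It was -0.19, with 8 of the 41 above 0, against 48.9% of all genes. Next were COL at -0.18, the phosphodiesterases (PDE, 19 tested) at -0.17 and the myosins (MYO, 20 tested) at -0.14. The highest below the ribosomal RNAs were the tetraspanins (TSPAN, 18 tested), membrane organizers, at 0.20, with 16 of the 18 above 0, against 48.9% of all genes. Next were the symbols starting in NR (24 tested), which include nuclear receptors, at 0.20. The small integral membrane proteins (SMIM, 23 tested) were at 0.19 and the small subunit ribosomal proteins (RPS, 42 tested) at 0.14. Relative to genes of like transcript length the myosins were at -0.01 and the tetraspanins at 0.21.

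Mitochondrial transfer RNA genes, of which 22 were tested, had a median departure of 0.31, the sign opposite to that of the mitochondrially encoded mRNAs. Of the 22, 17 were above 0, against 48.9% of all genes. At 2-fold, 3 were above, against 0.487% of all, and 1 below, against 0.734%. Long intergenic noncoding genes (LINC, 213 tested) had a median of -0.08, zinc finger genes (ZNF, 414 tested) 0.02 and mitochondrial ribosomal protein genes (82 tested) 0.10.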
